A study of Mus musculus with 24 samples.

Results

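Collagen chain RNAs were examined in 8 lines of MC38, a mouse colorectal cancer cell line of C57BL/6 origin, of which 5 carried constructs targeted at genes that build glycans, 2 carried constructs without a target and 1 was unmodified. The collagen genes were all genes of the deposited table whose mouse symbol consists of Col, a number, a and a number. Of the 52636 genes in the table, 44 met that rule, and 22 of the 44 had a mean of at least 10 normalized counts over the 24 samples, as did 13515 genes in all. A normalized count is the number of reads assigned to a gene after 1 scaling factor per library, rounded to a whole number. The lowest mean inside that limit was 16.4 (Col5a2) and the highest outside it was 8.33 (Col20a1).

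Each line was sampled 3 times, and each sample has a passage number. Unmodified MC38-WT cells were taken at passages 7 to 9 and were the cells grown without puromycin. MC38-MOCK#1 carried an empty CRISPR-Cas9 construct. MC38-COSMC KO (the MC38-Tnhigh line) was targeted at COSMC, the gene C1galt1c1 for the chaperone that core O-glycan elongation depends on. MC38-CMAS KO was targeted at CMAS, the enzyme that activates sialic acid, and MC38-DKO at both genes. These 4 lines were taken at passages 4 to 6. MC38-MOCK#2, MC38-FUT4 and MC38-FUT9 carried CRISPR-dCas-VPR, an activator of transcription, with no target, with fucosyltransferase FUT4 as target and with FUT9 as target. MC38-MOCK#2 and MC38-FUT9 were taken at passages 6 to 8, and MC38-FUT4 at passages 7, 8 and 7. The MC38-Tnhigh line is a bulk population sorted on a lectin that binds Tn antigen and not a clone. How the other lines were selected is not given in the sources used here. The study's methods describe separate passages, at passage 4 to 6, each collected at its own time. The labels also give later passages, and replicates 1 and 3 of MC38-FUT4 share passage 7. The p-values therefore measure the spread between samples of 1 cell population, which for MC38-FUT4 are not all separate passages.

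Collagens are the main structural proteins of the extracellular matrix. Each molecule is a trimer of alpha chains, and a class of collagen forms from chains that are encoded by separate genes: fibrillar collagens build fibres, type IV builds the sheet of the basement membrane, and type VI builds beaded filaments. FACIT collagens attach to the surface of fibrils. In colorectal tumours most fibrillar collagen is attributed to fibroblasts, whereas epithelial cells contribute mainly to the basement membrane.

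The libraries summed to 10911849 to 12263307 normalized counts, and 1 read was worth an estimated 0.756 to 1.67 normalized counts, which puts the depth at 6760117 to 16231504 assigned reads. Cmas was listed at 93 to 142 in MC38-CMAS KO and MC38-DKO and at 272 or more elsewhere. C1galt1c1 was listed at 124 to 163 in MC38-COSMC KO, 220 to 251 in MC38-MOCK#1, 152 to 215 in MC38-CMAS KO, 166 to 206 in MC38-DKO and 154 to 244 in the other 4 lines, so its RNA overlapped between MC38-COSMC KO and lines that were not targeted at it, and between MC38-DKO and MC38-CMAS KO. Fut9 was at 641 to 955 in MC38-FUT9, at 171 to 209 in the line labelled MC38-FUT4 and at 7 or less elsewhere. Fut4 was at 0 or 1 in every sample, the line labelled MC38-FUT4 included. Of the epithelial markers, Cdx2, Epcam and Cldn7 were at or near 0 in all lines, and the 9 listed markers summed to at most 49 outside the line labelled MC38-FUT4, where Krt20 alone reached 263 to 468. The 9 fibroblast and mesenchymal markers summed to 22638 to 34123, nearly all of it Vim. Over all samples Pdgfra was at 401 to 1427, Prrx1 at 147 to 1344 and Pdgfrb at 27 to 1100. Dcn was at 0 to 417, Acta2 at 25 to 53, Fap at 0 to 20 and Lum at 0 to 11. Thy1 was at 0 in every sample, the 5 leukocyte markers summed to at most 6, and the 3 endothelial markers to at most 19.

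Upstream sequence is shown for 4 chains whose RNA differed widely between lines (Col3a1, Col6a3, Col6a2 and Col4a6) and for the stretch shared by Col4a1 and Col4a2, whose line means spanned the narrowest range. The sequences are RefSeq windows of GRCm38.p6, read 5′ to 3′ on the strand of the gene, and end at the base before the transcript start. Col3a1 lies on the plus strand (chr1:45311288-45311537), Col6a3 on the minus strand (chr1:90843972-90844221), Col6a2 on the minus strand (chr10:76623631-76623880) and Col4a6 on the minus strand (chrX:141474077-141474326). Capitals mark a TATA word, which is TATAAA. They also mark a CAAT word, spelled CCAAT, and a GC word, spelled GGGCGG, each searched on both strands.
Col3a1: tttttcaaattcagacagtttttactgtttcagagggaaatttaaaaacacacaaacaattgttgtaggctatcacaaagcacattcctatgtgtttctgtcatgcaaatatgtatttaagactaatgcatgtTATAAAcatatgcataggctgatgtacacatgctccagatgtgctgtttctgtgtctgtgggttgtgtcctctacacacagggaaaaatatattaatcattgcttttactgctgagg
Col6a3: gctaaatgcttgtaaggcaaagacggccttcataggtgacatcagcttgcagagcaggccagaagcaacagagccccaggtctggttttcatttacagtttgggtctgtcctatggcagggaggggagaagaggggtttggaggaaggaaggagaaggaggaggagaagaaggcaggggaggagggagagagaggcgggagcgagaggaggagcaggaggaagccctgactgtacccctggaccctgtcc
Col6a2: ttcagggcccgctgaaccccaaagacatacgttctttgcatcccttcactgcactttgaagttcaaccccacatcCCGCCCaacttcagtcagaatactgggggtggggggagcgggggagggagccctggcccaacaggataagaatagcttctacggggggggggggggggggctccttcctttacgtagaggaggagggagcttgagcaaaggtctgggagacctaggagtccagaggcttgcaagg
Col4a6: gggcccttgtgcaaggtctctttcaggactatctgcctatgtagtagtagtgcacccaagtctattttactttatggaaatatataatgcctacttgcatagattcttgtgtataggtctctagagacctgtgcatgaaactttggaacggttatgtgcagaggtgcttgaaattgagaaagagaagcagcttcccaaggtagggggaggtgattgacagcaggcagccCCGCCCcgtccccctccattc
Col4a1 and Col4a2 start head to head on opposite strands, and their first exons overlap by 22 bases (chr8:11312805-11312826, plus strand), part of both transcripts.
Col4a1 and Col4a2 overlap: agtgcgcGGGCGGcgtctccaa
In Col3a1 the TATAAA begins 117 bases before the start. Col6a3 held none of the 3 words. Col6a2 held GGGCGG on the other strand 175 bases before the start, and Col4a6 held it 21 bases before. A window was present for 35 of the 44 genes and for 18 of the 22 with a mean of at least 10. Over the 250 bases before the start, GGGCGG was in 75.0% of the 20 windows of these 18 genes and in 58.8% of the 11748 windows of all genes with a mean of at least 10. For CCAAT the shares were 45.0% and 36.7%, and for TATAAA 10.0% and 6.1%. The 3 words do not overlap each other as written, and a match describes letters only.

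All collagen genes together made up 0.151% to 0.341% of a library's normalized counts. The mean share was highest in MC38-COSMC KO, at 0.306% to 0.325% (mean 0.318% ± 0.0103, SD, n = 3), and lowest in MC38-DKO, at 0.151% to 0.179% (mean 0.162% ± 0.0151, SD, n = 3). These ranges did not overlap each other, but each overlapped other lines. MC38-WT reached 0.312% and MC38-MOCK#2 0.341%, while MC38-FUT9 began at 0.160% and MC38-MOCK#1 at 0.173%. Most of the measured classes were present: 9 of 11 fibrillar genes, 4 of 6 type IV genes, 3 of 6 type VI genes, 3 of 9 FACIT genes, Col8a1 of the network-forming class, Col18a1 and Col7a1 had a mean of at least 10. None of the 4 transmembrane collagens did. The 22 remaining genes never exceeded 20 normalized counts in a sample, 14 of them had a mean below 1, and Col13a1 was at 0 in every sample.

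**Figure D1:**
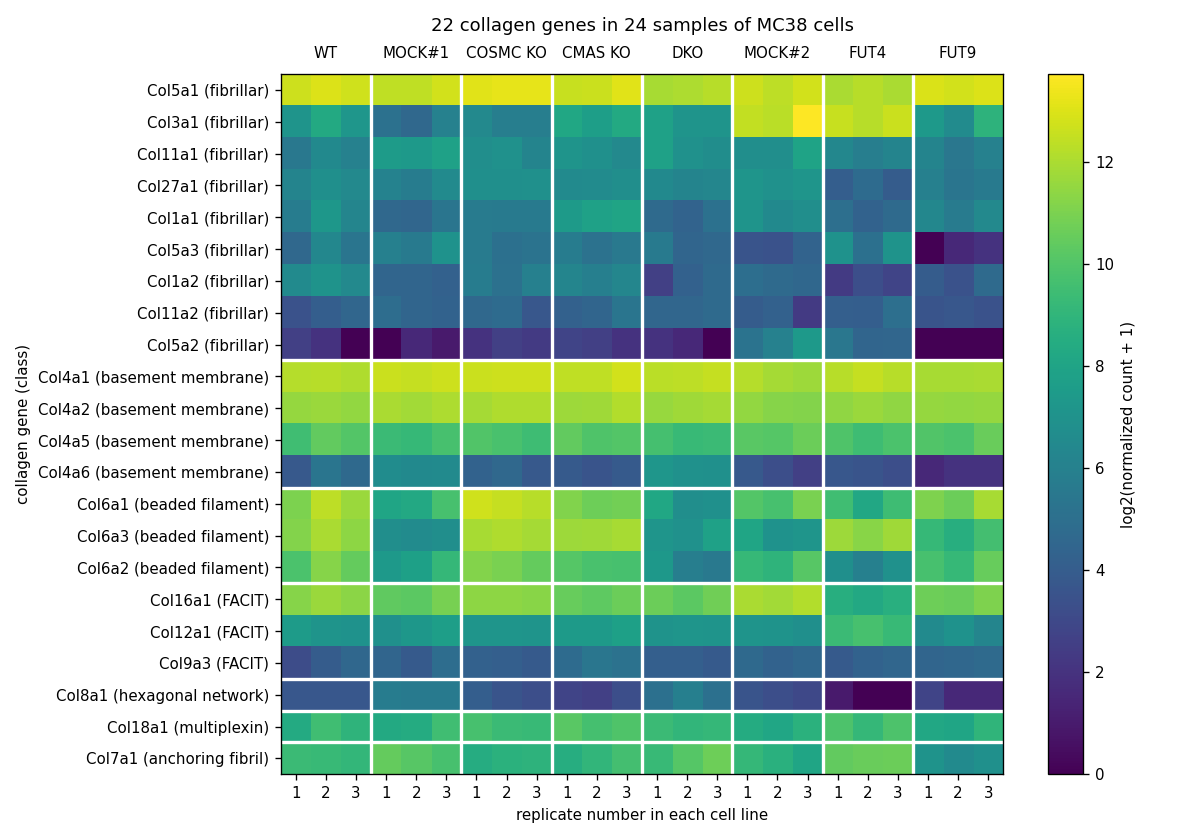
Level of the 22 collagen genes with a mean of at least 10 (rows, grouped by class) in the 24 samples (columns, 3 per line). Colour gives log2(normalized count + 1). Col5a1, Col4a1 and Col4a2 are bright in every column, Col3a1 is bright in MOCK#2 and FUT4 alone, and Col5a2 is at 0 in the 3 FUT9 samples.

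The lines differed in most of these genes. Of the 34 collagen genes tested in the limma F test over the 8 lines, 26 had an adjusted p below 0.05, against 48.2% of all genes tested. Among those with a mean of at least 10 it was 20 of 22, against 64.9% of all such genes. The other two were Col9a3 (limma adjusted p = 0.059) and Col11a2 (limma adjusted p = 0.131), both low at 8 to 41 and 4 to 39 normalized counts. Fewer cells of a kind and less RNA per cell cannot be told apart in these bulk samples.

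Of all collagen genes Col6a3, a type VI chain, had the largest F over the 8 lines (153.3), while the other type VI chains, Col6a1 and Col6a2, came after 7 genes of other types. Col6a3 (ENSMUSG00000048126, GRCm38 chr1:90765923-90843971, minus strand), the largest of its chains, was listed at 108, 96 and 110 normalized counts in MC38-MOCK#1, at 141, 121 and 228 in MC38-DKO and at 263, 128 and 144 in MC38-MOCK#2. It was listed at 2311, 4034 and 2704 in MC38-WT, at 3829, 4292 and 3765 in MC38-COSMC KO, at 3382, 3522 and 3890 in MC38-CMAS KO, and at 3308, 2513 and 3476 in the line labelled MC38-FUT4. In MC38-FUT9 it stood at 594, 392 and 799. The samples therefore fell into 3 ranges that did not overlap, with 3 lines at the bottom, 4 lines at the top and MC38-FUT9 between them. The mean of MC38-COSMC KO was 37.9 times that of MC38-MOCK#1 (limma F over lines, adjusted p = 3.79e-14).

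Col6a1 and Col6a2, the 2 chains that join Col6a3 in the trimer, are neighbours on chromosome 10, 85161 bases apart. They followed it in part. Col6a1 was listed at 267, 311 and 858 in MC38-MOCK#1 and at 288, 110 and 118 in MC38-DKO, against 6724, 5817 and 4893 in MC38-COSMC KO, 2184, 1641 and 1811 in MC38-CMAS KO and 2042, 5160 and 3199 in MC38-WT. In MC38-MOCK#2 it stood at 1044, 860 and 1993, in MC38-FUT9 at 2112, 1593 and 3953, and in the line labelled MC38-FUT4 at 732, 302 and 690. The knockout lines and MC38-WT lay above every MC38-MOCK#1 sample, whereas MC38-DKO overlapped MC38-MOCK#1.
Col6a2 was listed at 171, 219 and 554 in MC38-MOCK#1, 159, 58 and 46 in MC38-DKO, 2333, 1966 and 1445 in MC38-COSMC KO, 1107, 867 and 856 in MC38-CMAS KO and 926, 2416 and 1437 in MC38-WT. In MC38-MOCK#2 it stood at 574, 491 and 1154, in MC38-FUT9 at 852, 590 and 1468, and in the line labelled MC38-FUT4 at 111, 63 and 123. In that line Col6a3 was thus among the highest and Col6a2 among the lowest. Replicate 3 of MC38-MOCK#1 and of MC38-MOCK#2 stood highest of its line for both chains.

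**Figure D2:**
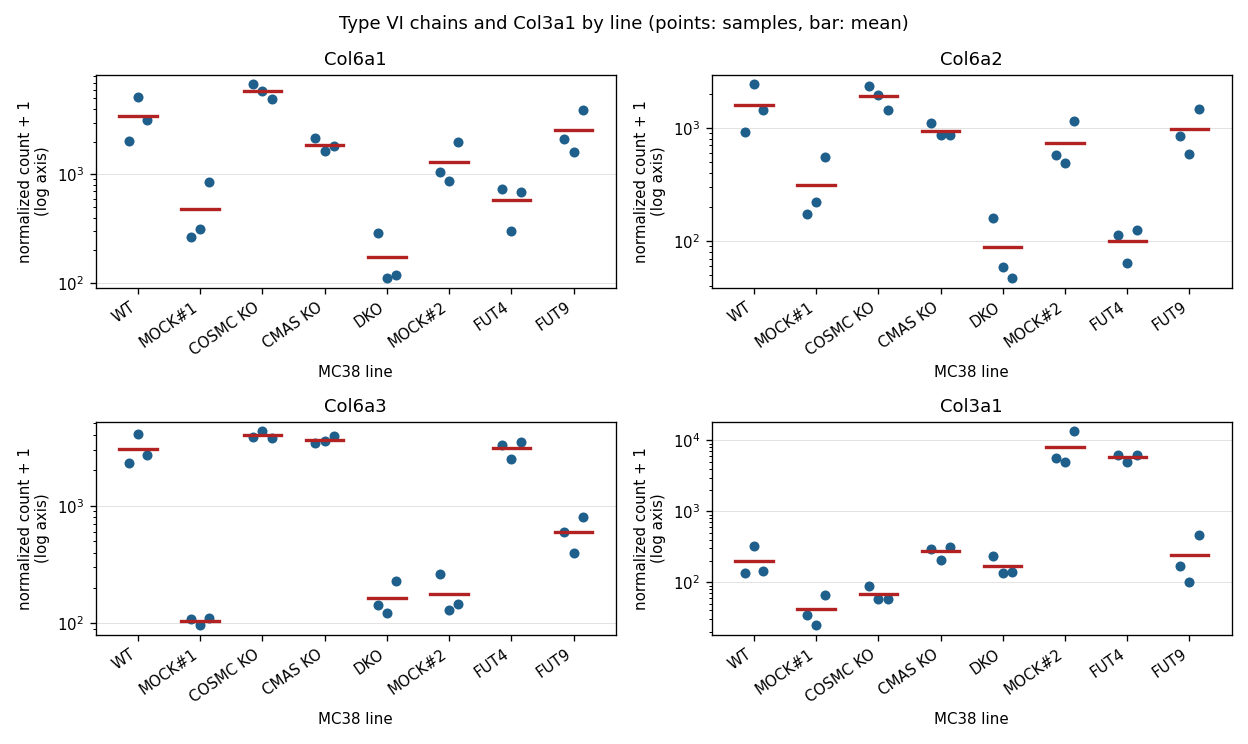
Normalized count + 1 (log axis) of Col6a1, Col6a2, Col6a3 and Col3a1 in each sample (points) by line, with the line mean (bar). Col6a3 lies between 96 and 263 in MOCK#1, DKO and MOCK#2 and at 2311 or more in WT, COSMC KO, CMAS KO and FUT4, while Col3a1 is at 4918 or more in MOCK#2 and FUT4 alone.

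The balance of the chains, as normalized counts per kb of exon, shifted between lines. The length is the listed exon length of the gene, at 4380 bases for Col6a1, 8326 for Col6a2 and 11963 for Col6a3. Which transcripts were made was not measured. The level of a ratio depends on these lengths, whereas its fold difference between lines does not. The ratio of Col6a1 to Col6a2 per kb was 2.89 to 5.77 in 7 lines and 11.0 in the line labelled MC38-FUT4, where single samples ranged from 9.11 to 12.5, above every sample of the other lines. The ratio of Col6a3 to Col6a1 per kb was 0.0503 in MC38-MOCK#2, 0.0801 in MC38-MOCK#1 and 0.0853 in MC38-FUT9, against 0.250 in MC38-COSMC KO, 0.319 in MC38-WT, 0.348 in MC38-DKO, 0.701 in MC38-CMAS KO and 1.97 in the line labelled MC38-FUT4. The remaining type VI genes were near absent: Col6a4 was at 0 to 10, and Col6a5 and Col6a6 at 0 to 2.

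Type IV collagen was steadier in Col4a1 and Col4a2, but not in Col4a6, whose line means spanned 48.25-fold. Col4a1 and Col4a2, which form the common basement membrane trimer and share the 22 bases printed above, were listed at 3397 to 7094 and 2293 to 4484 over all 24 samples, and their line means spanned 1.65-fold each. Col4a1 was at 6357, 5884 and 6622 in MC38-MOCK#1, 4622, 4821 and 4363 in MC38-WT and 4704, 3725 and 3397 in MC38-MOCK#2, with no overlap between MC38-MOCK#1 and the other two. Their ratio per kb was 1.34 to 1.44 in 6 lines, 1.19 in MC38-FUT9 and 1.56 in the line labelled MC38-FUT4. The narrow ranges within these lines, 1.16 to 1.21 and 1.54 to 1.57, lay outside those of the other 6.

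**Figure D3:**
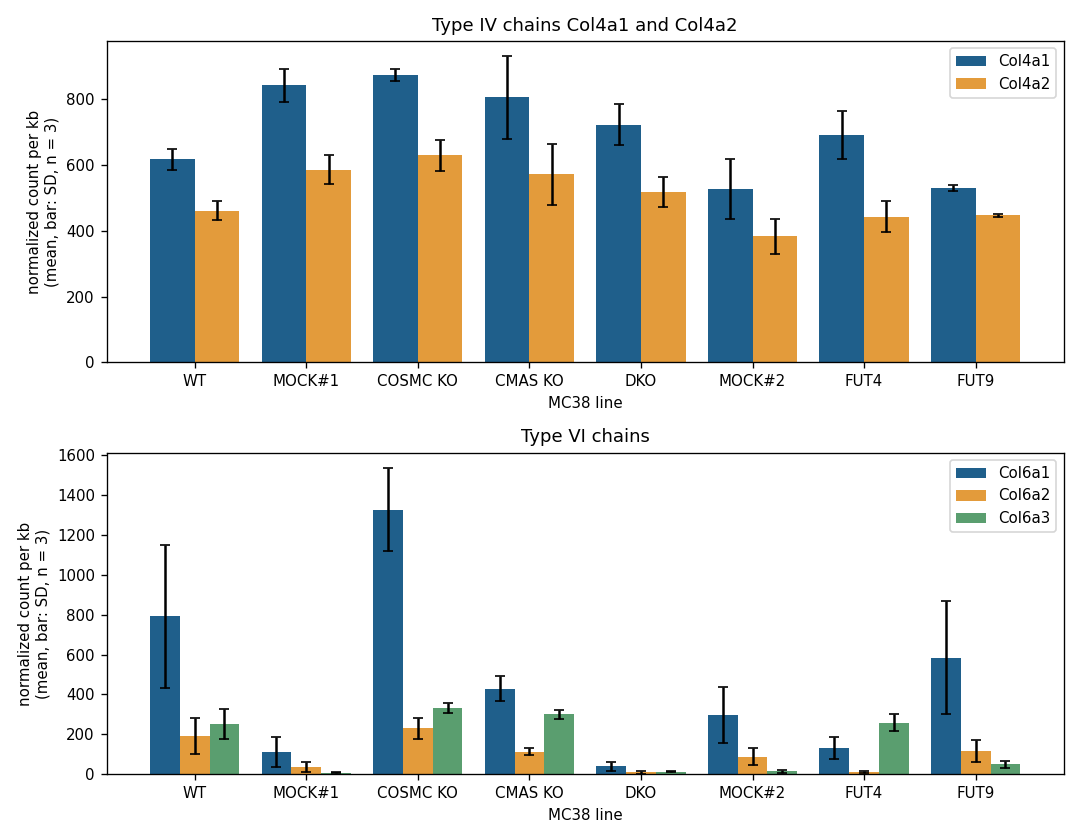
Normalized counts per kb of exon by line (bars: mean, error bars: SD, n = 3). Upper panel: Col4a1 and Col4a2 keep a ratio between 1.19 and 1.56 in all 8 lines. Lower panel: Col6a1 exceeds Col6a2 in every line, and Col6a3 exceeds Col6a1 in FUT4 alone.

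Col4a5 and Col4a6 also lie head to head, on chromosome X, 1308 bases apart, but did not move together. Col4a5 was listed at 594 to 1586 over all samples. Col4a6 was listed at 101, 89 and 94 in MC38-MOCK#1 and at 146, 121 and 119 in MC38-DKO. In MC38-WT it stood at 13, 39 and 25, in MC38-COSMC KO at 19, 24 and 13, in MC38-CMAS KO at 14, 11 and 14, in MC38-MOCK#2 at 13, 9 and 5, in the line labelled MC38-FUT4 at 12, 11 and 9, and in MC38-FUT9 at 2, 3 and 3. Every MC38-MOCK#1 and MC38-DKO sample lay above every sample of the other 6 lines. The ratio of Col4a5 to Col4a6 per kb was 6.39 in MC38-DKO, 8.70 in MC38-MOCK#1 and 48.7 or more in the others. Col4a3 and Col4a4, the pair that completes the kidney-type network, were at 0 to 2 and 0 to 6.

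Col8a1, which forms hexagonal networks in vessel wall and cornea, had the same 2 lines at the top. It was listed at 53, 48 and 50 in MC38-MOCK#1 and at 33, 60 and 32 in MC38-DKO, at 12 in each MC38-WT sample, at 16, 11 and 9 in MC38-COSMC KO, at 6, 5 and 9 in MC38-CMAS KO, at 11, 9 and 7 in MC38-MOCK#2, at 6, 2 and 2 in MC38-FUT9 and at 1, 0 and 0 in the line labelled MC38-FUT4. No sample of another line reached the lowest MC38-DKO value.

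**Figure D4:**
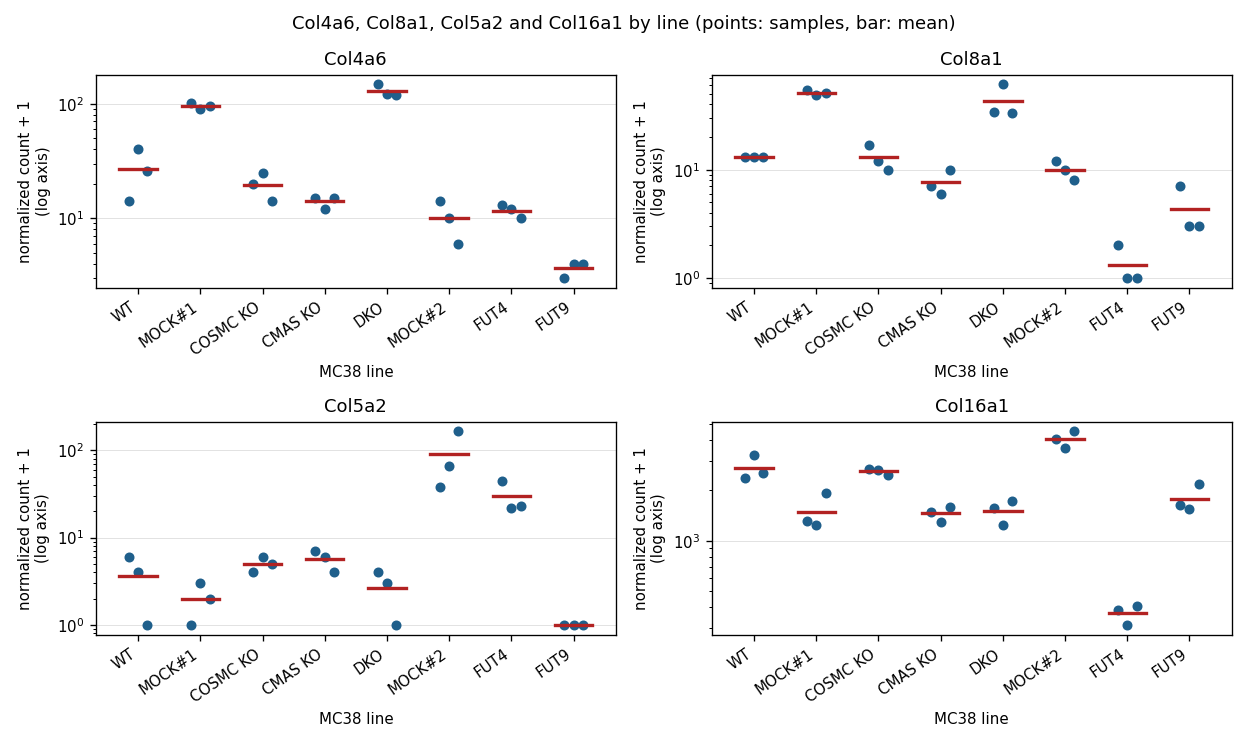
Normalized count + 1 (log axis) of Col4a6, Col8a1, Col5a2 and Col16a1 in each sample (points) by line, with the line mean (bar). Col4a6 and Col8a1 are highest in MOCK#1 and DKO, Col5a2 is at 21 or more in MOCK#2 and FUT4 alone, and Col16a1 is lowest in FUT4.

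Among the fibrillar genes Col5a1, a chain that starts and limits the width of fibrils, was at 3870 to 9597 over the samples and had the highest mean of the collagen genes. It was listed at 8726, 9479 and 9597 in MC38-COSMC KO, 5493, 5352 and 6934 in MC38-MOCK#1, 6010, 6219 and 8695 in MC38-CMAS KO and 3870, 4195 and 4855 in MC38-DKO. It stood at 6536, 5141 and 7048 in MC38-MOCK#2 and 4001, 4782 and 3967 in the line labelled MC38-FUT4. MC38-COSMC KO lay above every MC38-MOCK#1 sample and MC38-DKO below. Per kb its line means ran from 501 in the line labelled MC38-FUT4 to 1092 in MC38-COSMC KO. Its partner chains were far lower. Col5a2 was listed at 37, 65 and 164 in MC38-MOCK#2 and at 43, 21 and 22 in the line labelled MC38-FUT4, at 0 in all 3 MC38-FUT9 samples and at 0 to 6 in the other 5 lines. Col5a3 was listed at 128, 33 and 130 in the line labelled MC38-FUT4, 11, 10 and 20 in MC38-MOCK#2, 0, 2 and 3 in MC38-FUT9 and 21 to 126 in the rest. Per kb, Col5a2 reached at most 0.0126 of Col5a1 in a line, and Col5a3 at most 0.0285.

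Col3a1 (ENSMUSG00000026043, GRCm38 chr1:45311538-45349706, plus strand), the single chain of the type III fibrils of elastic tissues, had the widest range. It was listed at 5601, 5020 and 13474 in MC38-MOCK#2 and at 6160, 4918 and 6318 in the line labelled MC38-FUT4. In MC38-FUT9, which shares the activator system with them, it stood at 166, 99 and 470. It stood at 34, 24 and 65 in MC38-MOCK#1, 88, 58 and 57 in MC38-COSMC KO, 291, 207 and 316 in MC38-CMAS KO, 234, 134 and 138 in MC38-DKO and 135, 322 and 145 in MC38-WT. The samples of these 2 high lines lay at 4918 or above and all others at or below 470. Col5a2 lies 24614 bases from Col3a1 on chromosome 1 in the opposite orientation, and the same 2 lines were highest for both genes. The control samples of the Cas9 and dCas-VPR systems that were both taken at passage 6 stood at 65 and 5601 for Col3a1 and at 1 and 37 for Col5a2.

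The type I chains, the main fibrillar collagen of bone and skin, were low. Col1a1 was listed at 175, 230 and 255 in MC38-CMAS KO, 134, 90 and 109 in MC38-MOCK#2 and 54, 155 and 75 in MC38-WT. It stood at 82, 51 and 87 in MC38-FUT9, 52, 47 and 47 in MC38-COSMC KO, 24, 22 and 39 in MC38-MOCK#1, 26, 20 and 34 in MC38-DKO and 31, 19 and 26 in the line labelled MC38-FUT4. MC38-CMAS KO lay above every other sample. Col1a2 was listed at 94, 131 and 87 in MC38-WT, 76, 59 and 78 in MC38-CMAS KO and 53, 34 and 62 in MC38-COSMC KO. It stood at 21, 21 and 18 in MC38-MOCK#1, 5, 18 and 26 in MC38-DKO, 30, 26 and 23 in MC38-MOCK#2, 15, 10 and 26 in MC38-FUT9 and 4, 9 and 6 in the line labelled MC38-FUT4. The genes did not keep 1 ratio: per kb Col1a1 was 1.72 times Col1a2 in MC38-WT and 8.17 times in MC38-FUT9. These levels depend on the listed lengths, 6563 bases for Col1a1 and 12426 for Col1a2. Before division by length the MC38-WT means were 94.7 for Col1a1 and 104 for Col1a2. Type III outnumbered type I per kb 153-fold (Col3a1 to Col1a1) in the line labelled MC38-FUT4 and 48.4-fold in MC38-MOCK#2, against 0.825 to 4.23 in the other 6 lines.

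Of the other fibrillar genes, Col11a1 was listed at 43 to 244 with the highest line mean in MC38-MOCK#1. It was at 183, 172 and 234 there, at 110, 120 and 73 in MC38-COSMC KO, 44, 91 and 64 in MC38-WT, 107, 109 and 244 in MC38-MOCK#2 and 72, 43 and 65 in MC38-FUT9. MC38-MOCK#1 lay above MC38-WT and MC38-COSMC KO in every sample. Col27a1 was listed at 39 to 143 in 7 lines and at 16, 27 and 15 in the line labelled MC38-FUT4, below all other samples.

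Among the other classes the line labelled MC38-FUT4 was lowest in Col16a1 and highest in Col12a1. Col16a1, a FACIT chain, was listed there at 386, 313 and 409, against 4037, 3589 and 4504 in MC38-MOCK#2 and 1245 to 3238 in the other 6 lines. Col12a1, a FACIT chain that bridges fibrils, was listed there at 660, 858 and 599, against 76 to 218 in all others. Col7a1, whose anchoring fibrils tie basement membrane to the tissue beneath, was listed there at 1357, 1547 and 1581 and in MC38-FUT9 at 129, 92 and 118. It stood at 1420, 1130 and 850 in MC38-MOCK#1, 355, 435 and 462 in MC38-COSMC KO, 658, 607 and 550 in MC38-WT, 378, 522 and 774 in MC38-CMAS KO and 559, 414 and 265 in MC38-MOCK#2. MC38-DKO, at 613, 1107 and 1624, held the highest single value, and both it and MC38-MOCK#1 overlapped the line labelled MC38-FUT4. The 3 MC38-FUT9 samples were the lowest for Col7a1, below the 265 of MC38-MOCK#2 replicate 3. Col18a1, the source of endostatin, ranged from 267 to 1187, with the highest line mean in MC38-CMAS KO.

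Differences between pairs of lines are given on the log2(normalized count + 1) scale, from limma fits across all genes with Benjamini-Hochberg adjustment. Comparisons of MC38-COSMC KO, MC38-CMAS KO, MC38-DKO, MC38-WT and MC38-MOCK#2 with MC38-MOCK#1 share the MC38-MOCK#1 samples. Those of the line labelled MC38-FUT4, MC38-FUT9 and MC38-MOCK#1 with MC38-MOCK#2 share the MC38-MOCK#2 samples. MC38-DKO against MC38-CMAS KO and the interaction use samples of these comparisons again. The calls are therefore set side by side and not counted as separate support.

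MC38-COSMC KO differs from MC38-MOCK#1 in the COSMC target, but line and target cannot be told apart. Of 33 collagen genes tested, 6 were higher and 4 lower, against 11.6% of all genes called (6.17% higher and 5.39% lower). All 3 type VI chains were higher: Col6a3 by 5.23 (SE 0.0833, adjusted p = 6.24e-07), Col6a1 by 3.79 (SE 0.404, adjusted p = 0.00227) and Col6a2 by 2.77 (SE 0.412, adjusted p = 0.00753). Col1a2, Col16a1 and Col5a1 were also higher, by 1.23, 0.83 and 0.65. Lower were Col4a6 (-2.32, SE 0.246, adjusted p = 0.00223), Col8a1 (-2.02), Col7a1 (-1.42) and Col11a1 (-0.97). All of the called genes except Col5a1 were also called, in the same direction, in unmodified MC38-WT against MC38-MOCK#1. The study left genes that changed in the same direction in both comparisons out of its Tnhigh set. Col6a3, Col6a1, Col4a6 and Col8a1 kept their call in each of the 6 fits that left out 1 sample. The other 6 genes lost it in at least 2, and Col11a1 in all 6. With the replicate number, here the passage, as a block Col6a3 was the 1 gene called. The median difference of the 22 genes was 0.49, against 0.000487 over all genes with a mean of at least 10.

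With MC38-CMAS KO against MC38-MOCK#1, 6 of 34 collagen genes tested were higher and 2 lower, against 5.76% of all genes (3.02% higher and 2.73% lower). Col6a3 was higher by 5.09 (SE 0.086, adjusted p = 2.77e-06), Col1a1 by 2.94 (SE 0.255, adjusted p = 0.00267), Col3a1 by 2.79 (SE 0.359, adjusted p = 0.00916), Col6a1 by 2.17 and Col1a2 by 1.77. The low Col4a4 was also called, at 6, 3 and 2 normalized counts against 0 in each MC38-MOCK#1 sample. Col4a6 (-2.78, SE 0.193, adjusted p = 0.00161) and Col8a1 (-2.78, SE 0.277, adjusted p = 0.00427) were lower. Col6a3 and Col4a6 kept their call whichever sample was left out, and Col6a3 was the 1 gene called with the replicate number as a block. Col6a2 missed the threshold at a difference of 1.76 (SE 0.406, limma adjusted p = 0.0553), although its 3 samples lay above all MC38-MOCK#1 samples.

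MC38-DKO, targeted at both genes, did not pass the threshold against MC38-MOCK#1 for any of 34 collagen genes in limma, against 0.092% of all genes called (0.023% higher and 0.069% lower). At an unadjusted p below 0.05 there were 9. The share of all genes at that limit was not counted, so this number is not read as a result about collagen genes. The 2 largest differences were Col3a1 at 2.08 (SE 0.362, limma adjusted p = 0.129), with all 3 samples above MC38-MOCK#1, and Col6a2 at -1.85 (SE 0.523, limma adjusted p = 0.405). Col3a1 passed the threshold when all 24 samples entered 1 fit, the single alternative under which a collagen gene did.

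MC38-DKO differs from MC38-CMAS KO in the COSMC target. Here 2 of 34 collagen genes were higher and 9 lower, against 6.93% of all genes (3.15% higher and 3.78% lower). Lower were Col6a3 (-4.50, SE 0.208, adjusted p = 3.81e-05), Col6a2 (-3.62), Col6a1 (-3.58, SE 0.332, adjusted p = 0.00111), Col1a1 (-3.01) and Col1a2 (SE 0.515, adjusted p = 0.0373). Col4a6 was higher by 3.21 (SE 0.213, adjusted p = 0.000244) and Col8a1 by 2.45. C1galt1c1 itself overlapped between these lines, at 206, 166 and 175 in MC38-DKO and 215, 181 and 152 in MC38-CMAS KO. Calls for Col6a3, Col4a6, Col6a1 and Col1a1 held in each of the 6 fits without 1 sample, whereas Col5a1, Col4a5, Col18a1 and the low Col4a4 lost theirs in all 6.

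The difference that went with the COSMC target was compared with and without the CMAS target, as an interaction. It used the 12 samples of the 4 CRISPR-Cas9 lines. Each line is a single population, so line and target cannot be told apart. Of 32 collagen genes tested, 18 had an adjusted p below 0.05, against 22.1% of all genes. The interaction was positive for 5 and negative for 13, against 11.1% and 11% of all genes. In 17 of the 18 the COSMC target went with opposite signs in the presence and absence of the CMAS target, as in 97.8% of all genes called in the interaction, so the count says nothing particular to collagen genes. In 7 of the 18 both sides were also called, against 17% of all such genes, and in 4 neither side was. For Col6a3 the difference was 5.23 without the CMAS target and -4.50 with it (interaction -9.73, SE 0.238, adjusted p = 2.04e-11). For Col4a6 it was -2.32 and 3.21 (interaction 5.53, SE 0.331, adjusted p = 7.79e-08). Of the 9 fibroblast and mesenchymal markers 7 were tested in the interaction, with Prrx1 (-4.34) and Pdgfrb (-5.34) called lower, Fap (2.86) called higher and 4 not called. Prrx1, a transcription factor of mesenchymal cells, was at 147 to 163 in MC38-MOCK#1, 204 to 239 in MC38-DKO and 398 to 1344 in the other 6 lines. Fap was at 0 to 8 in the 4 lines of the interaction. The part of these markers in the result was not tested.

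**Figure D5:**
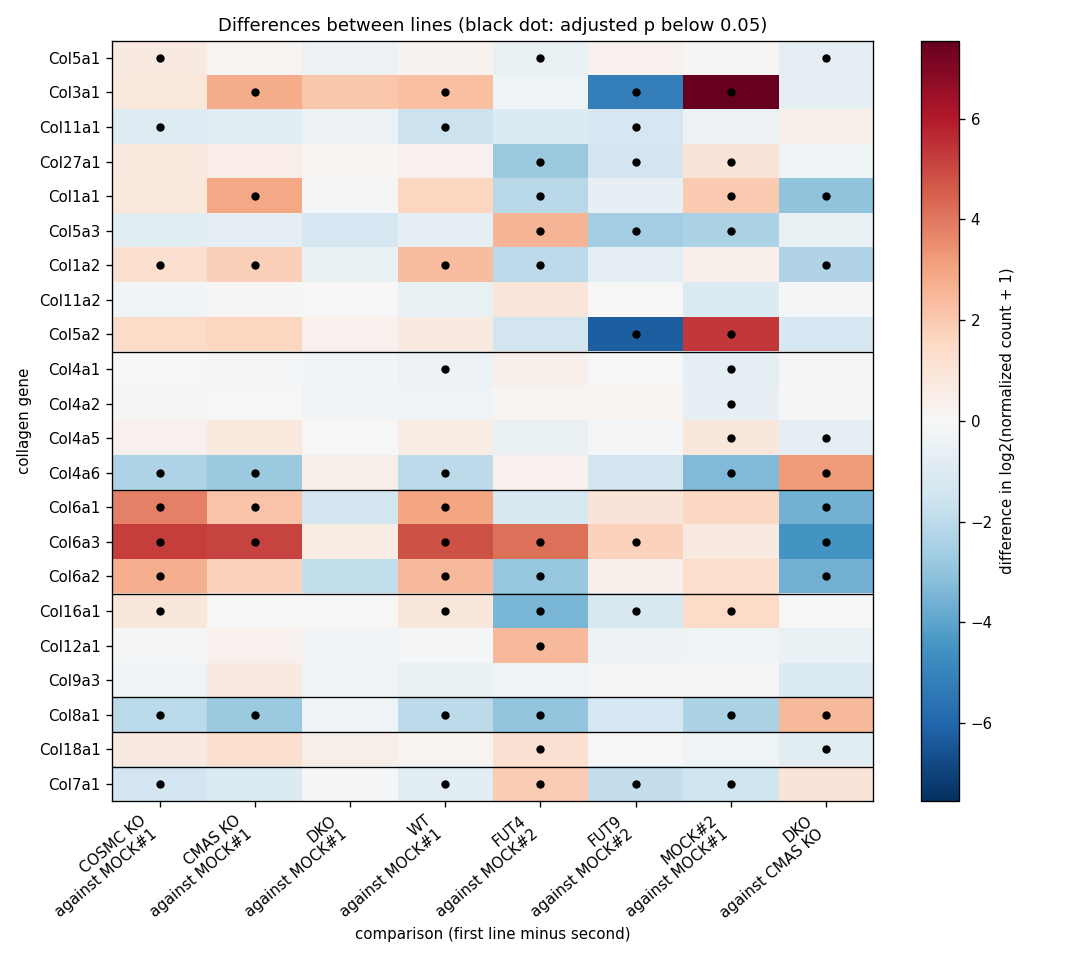
Difference in log2(normalized count + 1) for 22 collagen genes (rows) in 8 comparisons (columns, first line minus second); a black dot marks an adjusted p below 0.05. Col6a3 is red in the COSMC KO, CMAS KO, WT and FUT4 columns and blue for DKO against CMAS KO, and the DKO against MOCK#1 column holds no dot. Low genes at 0 in a line depend on the pseudocount of 1.

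The unmodified cells differed from the empty-construct control as well. In MC38-WT against MC38-MOCK#1, 6 of 34 collagen genes were higher and 5 lower, against 5.51% of all genes (2.7% higher and 2.81% lower). Col6a3 was higher by 4.80 (SE 0.196, adjusted p = 0.000149), Col6a1 by 2.96, Col6a2 by 2.42 and Col3a1 by 2.27. Col1a2 (SE 0.229, adjusted p = 0.00385) and Col16a1 (0.88) were higher as well. Col8a1 (-1.98), Col4a6 (-1.97), Col11a1 (-1.60), Col7a1 (-0.88) and Col4a1 (-0.45) were lower. Col6a3 alone kept its call in each fit without 1 sample. Without MC38-MOCK#1 replicate 2 it was the only collagen gene called. With the replicate number as a block 0 collagen genes were called in limma, with 15 at an unadjusted p below 0.05. The shares of all genes in these fits were not counted. Passage (7 to 9 against 4 to 6), puromycin and line cannot be told apart here.

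Against its own control MC38-MOCK#2, the line labelled MC38-FUT4 had 5 of 37 collagen genes higher and 8 lower, against 16.1% of all genes (8.1% higher and 8.04% lower). Col6a3 was higher by 4.17 (SE 0.273, adjusted p = 0.000318), Col5a3 by 2.57, Col12a1 by 2.47 (SE 0.152, adjusted p = 0.000257), Col7a1 by 1.92 and Col18a1 by 1.16. Lower were Col16a1 (-3.45, SE 0.126, adjusted p = 7.56e-05), Col8a1 (-2.97), Col6a2 (-2.84), Col27a1 (-2.79), Col1a1 (-2.10), the low Col8a2 (-1.97), Col1a2 (-1.95) and Col5a1 (-0.55). For Col8a1 the fitted value rests on 1 normalized count over the line against 27, a ratio of 27.0 with a 95% exact counting interval of 4.45 to 1110. The 8 genes Col6a3, Col16a1, Col12a1, Col27a1, Col6a2, Col7a1, Col1a1 and Col8a1 kept their call in all 6 fits without 1 sample. Replicates 1 and 3 of the line labelled MC38-FUT4 share passage 7 and were closer to each other than to replicate 2. Their median squared difference was 1.57 times that of counting noise, against 4.73 and 4.97 for the pairs with replicate 2. The SEs and these fits therefore do not rest on 3 separate passages of that line. Col3a1 did not pass (-0.33, SE 0.357, limma adjusted p = 0.607). Krt20 stood at 263 to 468 in this line against 0 or 1 in MC38-MOCK#2. Of 8 fibroblast and mesenchymal markers tested, Prrx1 (0.68), Fap (2.07) and Dcn (2.97) were higher, Pdgfrb (-2.44) was lower and 4 were not called. The part of Krt20 or of these markers in the results was not tested.

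MC38-FUT9 against MC38-MOCK#2 had 2 of 36 collagen genes higher and 8 lower, against 24.1% of all genes (12.1% higher and 12% lower), a share close to that of the collagen genes. With every library scaled to the same total it was 1 higher and 9 lower, and over all genes 1979 higher and 3237 lower in place of 2596 and 2570. Col3a1 was lower (-5.19, SE 0.608, adjusted p = 0.00171). Col5a2, at 0 in the 3 MC38-FUT9 samples, was 88.7-fold lower when 3 normalized counts over the line were taken as the floor. This value is not a lower bound, as the exact 95% counting interval reaches down to 71.6. Without MC38-MOCK#2 replicate 3, which held 164 of the 266 normalized counts, the value with the same floor was 34.0. Also lower were Col5a3 (-2.62), the low Col22a1 (-2.33), Col7a1 (-1.81), Col27a1 (-1.45), Col11a1 (-1.26) and Col16a1 (-1.19, SE 0.147, adjusted p = 0.00202). Col6a3 was higher by 1.75 (SE 0.338, adjusted p = 0.0113) but lost its call in 4 of the 6 fits without 1 sample. The low Col15a1 was the other gene called higher, at 1, 1 and 3 against 0 in each control sample. Col3a1, Col5a2, Col27a1, Col16a1 and Col7a1 kept their calls in all 6 fits.

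The 2 control lines also differed from each other. They carried different construct systems and were taken over passage ranges that overlapped only in part. Construct system, passage and line therefore cannot be told apart in this comparison. In MC38-MOCK#2 against MC38-MOCK#1, 6 of 37 collagen genes were higher and 7 lower, against 11.3% of all genes (5.3% higher and 6.02% lower). Col3a1 was higher by 7.55 (SE 0.47, adjusted p = 0.000681). Col5a2 summed to 266 against 3 normalized counts over the line, a ratio of 88.7 with a 95% exact counting interval of 30.0 to 433. Col1a1 (1.96), Col16a1 (1.46), Col27a1 (0.95) and Col4a5 (0.88) were higher. Col4a6 (-3.34, SE 0.334, adjusted p = 0.00257), Col5a3 (-2.38), Col8a1 (-2.38), Col7a1 (-1.49), the low Col20a1 (-1.46), Col4a1 (-0.69) and Col4a2 (-0.62) were lower. Col3a1, Col5a2, Col4a6, Col16a1 and Col8a1 kept their calls in all 6 fits without 1 sample, and no other gene did. Without MC38-MOCK#2 replicate 3, which held the highest Col3a1 and Col5a2 values, both were still called.

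The genes that make and assemble collagen were followed from fixed lists. Of 19 genes for procollagen synthesis, 3 were higher and 2 lower in MC38-COSMC KO against MC38-MOCK#1, 1 and 1 in MC38-CMAS KO, 0 and 0 in MC38-DKO, and 2 and 1 in MC38-WT, where 11.6%, 5.76%, 0.092% and 5.51% of all genes were called. Against MC38-MOCK#2 they were 4 higher and 5 lower in the line labelled MC38-FUT4 and 5 higher and 3 lower in MC38-FUT9, where 16.1% and 24.1% of all genes were called. Serpinh1, the collagen-specific chaperone of the endoplasmic reticulum, was listed at 13315, 12723 and 12803 in MC38-FUT9 and 3945, 4119 and 4903 in MC38-MOCK#2 (1.59, SE 0.0922, adjusted p = 0.000205). It stood at 2021 to 2520 in MC38-MOCK#1, MC38-DKO and the line labelled MC38-FUT4, and at 3545 to 5921 in MC38-WT, MC38-COSMC KO and MC38-CMAS KO. Serpinh1 was thus highest in a line where Col3a1 was near the low range. P4ha3, a proline hydroxylase subunit, was at 83, 92 and 94 in MC38-FUT9 against 20, 40 and 32 in MC38-MOCK#2 and 2, 10 and 8 in the line labelled MC38-FUT4.

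Of 14 genes for processing and crosslinking, 2 were higher (Adamts14, Pxdn) and 2 lower (Bmp1, Loxl4) in both MC38-COSMC KO and MC38-CMAS KO against MC38-MOCK#1, and none passed in MC38-DKO, with 9 tested in each and 11.6%, 5.76% and 0.092% of all genes called. In unmodified MC38-WT against MC38-MOCK#1 Pxdn was higher and Bmp1 lower as well, with 11 tested and 5.51% of all genes called. Bmp1, which removes the C-terminal propeptide of fibrillar procollagens, was at 879 to 936 in MC38-MOCK#1, 732 to 824 in MC38-DKO and 324 to 361 in MC38-FUT9. Adamts14, which removes the N-terminal propeptide, was at 975 to 1163 in MC38-COSMC KO and 387 to 503 in MC38-MOCK#1. Of 10 collagen receptor genes, 7 were tested in MC38-COSMC KO, where Ddr2 and Mrc2 were higher and Itga1 and Ddr1 lower, against the same 11.6%. Of 6 tested, Itga1 alone was called in MC38-CMAS KO, lower, and none in MC38-DKO, against 5.76% and 0.092%. In the line labelled MC38-FUT4 against MC38-MOCK#2, 3 of 9 processing genes tested were higher (Adamts14, Pcolce2, Pxdn) and 4 lower (Pcolce, Loxl2, Bmp1, Loxl4), against 16.1% of all genes. The same genes were called in the same directions in MC38-FUT9 against MC38-MOCK#2, with 8 tested, against 24.1% of all genes. Mrc2, a receptor that takes up collagen, was lower in the line labelled MC38-FUT4, at 1124, 996 and 1075 against 2007, 1818 and 2621 in MC38-MOCK#2 (SE 0.136, limma adjusted p = 0.00417).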

How the data were processed

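RNA of 24 samples of 8 MC38 lines (3 per line) was sequenced by the authors as 50-base single reads from a TruSeq stranded mRNA library. Per the labels and the study's methods, reads were trimmed with Sickle, aligned with HISAT2 2.0.4 to GRCm38, handled with SAMtools 0.1.19 and counted per gene with featureCounts of Subread 1.5.0-p3, leaving out reads that overlap several genes. The strand setting is not given in the sources used here. The deposited values are a score: gene counts that the authors scaled by library size and TMM factors with edgeR 3.18.1 and rounded to whole numbers, so they are not raw counts and no count test was run. Reads per library were estimated from the steps of the values with a method that was at most 0.371% off on simulated data.

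Values were compared as log2(value + 1) with limma 3.58.1 in R 4.3.3 (moderated statistics with a mean-variance trend, Benjamini-Hochberg adjustment over all genes, threshold 0.05). Genes with zeros in more than 4 of 6, 8 of 12 or 16 of 24 samples were left out. Each pair of lines was fitted on its own samples, the interaction on 12 samples and the F test over lines on 24. Tables and figures used Python 3.11.15 with pandas 2.3.3, numpy 2.4.6, scipy 1.17.1 and matplotlib 3.10.9. Counting intervals are exact, at 95%, treat normalized counts as counts and cover counting error only. The limma fits of MC38-COSMC KO, of the line labelled MC38-FUT4, of the interaction and over the 8 lines were also run on simulated counts. Those counts had independent samples and the same spread beyond counting for every gene. They therefore cannot show how the fits behave at the spread of the real samples. Genes were named by 1 rule: every collagen gene with a mean of at least 10, and in each comparison the 5 called genes with the largest difference in each direction. Called genes beyond these, and the genes of the pathway lists given with values, were chosen after their values were seen. The collagen genes and the lists were chosen with earlier results of these data known. Alternatives covered the pseudocount, the filter, the scaling, the trend, a fold limit, 1 fit of all samples, a replicate block and leaving out each sample. Same-numbered samples did not deviate together in every pair of any comparison, so no block was used.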

Additional observations from a re-analysis of the deposited data

Results flagged for a closer look

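For 18 collagen genes the difference that went with the COSMC target was not the same with and without the CMAS target, by the interaction contrast of limma over 12 samples. The values are the difference of MC38-DKO from MC38-CMAS KO minus that of MC38-COSMC KO from MC38-MOCK#1, on the log2(normalized count + 1) scale. The type VI chains had the largest negative values, with Col6a3 at -9.73, Col6a1 at -7.37 and Col6a2 at -6.39. The type I chains followed, with Col1a1 at -3.81 and Col1a2 at -3.53. Among other fibrillar genes Col5a2, listed at 0 to 6 normalized counts in these 4 lines, was at -2.71. Col3a1 was at -1.51, Col5a1 at -1.33, Col27a1 at -1.03 and Col11a1 at 1.35. The type IV genes were split, with the low Col4a4 (0 to 6 normalized counts) at -3.19, Col4a5 at -1.06 and Col4a6 at 5.53. Col18a1 was at -1.45 and Col16a1 at -0.79. Col8a1 was at 4.47, Col7a1 at 2.37 and the low Col6a4 at 2.36. Col3a1 lost the call in 7 of the 12 fits without 1 sample, Col5a2 in 6, Col6a4 in 4 and Col11a1 in 3, and the other 14 kept it in all. Each of the 4 lines is a single population, so line and target cannot be told apart.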

How the results depend on the processing

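Over the fits without 1 sample the counts of called collagen genes ran from 4 to 11 for MC38-COSMC KO, 3 to 9 for MC38-CMAS KO and 1 to 5 for MC38-WT, each against MC38-MOCK#1 and each lowest without MC38-MOCK#1 replicate 2, and stayed at 0 for MC38-DKO. They ran from 8 to 12 for the line labelled MC38-FUT4 (lowest without its replicate 3) and 6 to 8 for MC38-FUT9 (lowest without MC38-MOCK#2 replicate 2). For MC38-MOCK#2 against MC38-MOCK#1 they ran from 5 to 9 (lowest without MC38-MOCK#1 replicate 1), for MC38-DKO against MC38-CMAS KO from 4 to 8 (lowest without MC38-CMAS KO replicate 1), for the interaction from 15 to 19 and over the 8 lines from 24 to 27. With the replicate number as a block, which lowered the first 3 counts further than leaving out any sample, 1 gene (Col6a3) was called for MC38-COSMC KO, 1 (Col6a3) for MC38-CMAS KO and 0 for MC38-WT. The mean correlation of same-numbered samples ran from -0.0988 to 0.167 over the 8 pairs of lines, and every sample correlated best with its own number in 3 of them. The replicate number follows passage in the labels except in the line labelled MC38-FUT4, at passages 7, 8 and 7. The passages are the same in MC38-MOCK#1 and the 3 knockout lines, and in MC38-MOCK#2 and MC38-FUT9. No label says that same-numbered samples shared a day or batch. Without the trend the counts were 6 for MC38-COSMC KO, 3 for MC38-WT, 8 for MC38-MOCK#2 against MC38-MOCK#1 and 7 for MC38-DKO against MC38-CMAS KO. With all 24 samples in 1 fit MC38-DKO had 1 (Col3a1). The shares of all genes called without 1 sample, with the block, without the trend or in 1 fit were not counted. A shift in the calls of all genes and one in those of collagen genes can therefore not be told apart. The cause of these shifts was not tested. Of 1507 alternative values of single genes none changed direction, 1200 kept their side of the threshold and 307 lost the call. With 3 samples per line and values listed as whole numbers, differences of genes below 10 normalized counts were close to the resolution of the data.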
